A study of Rattus norvegicus with 7 samples.

Results

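The circadian clock genes *Cry1*, *Per2*, *Npas2*, *Nr1d1* and *Dbp* were examined in RNA from rat adrenal glands after chronic stress. They are the 5 clock genes whose Ensembl identifiers are paired with a symbol in the study's lists of genes that differed from control, out of 32754 genes in the count table. The lists were drawn from chronic shock (CS) against control, chronic variable stress (CVS) against control, or both, and the genes were thus chosen by the adjusted p-values of these same contrasts. *Npas2* and *Nr1d1* were listed for both protocols, *Cry1* and *Per2* for CVS alone and *Dbp* for CS alone. Levels against control are given below as a description, with counts of calls but no p-value. The direct comparison of CS with CVS was tested. It chose none of the genes, but genes listed for CVS alone or CS alone are more likely to differ in it. Its p-values are thus not free of the choice.

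All libraries came from male Sprague-Dawley rats. Control animals lived in groups and were only weighed and handled. CS animals lived singly for 3 weeks on a metal grid and received foot shocks of random strength and timing, on average 4 per hour in the dark phase and 1 per hour in the light phase. CVS animals went through a changing series of physical, psychological and social stressors over 3 weeks, which included short foot shock sessions, restraint, food deprivation, nights with the lights on and days with the lights off. By the study's methods no such light change fell within 6 days of death. CVS animals lived in small groups with changing cage mates, apart from spells of isolation. The CS animals were kept in a different room from the other groups. Housing and room thus differed along with the stress protocol and cannot be told apart from it here. Stress began on postnatal day 28, animals were killed on postnatal day 50 or 51, and dissections took place within a few hours in the middle of the light phase. The groups comprised 3 Control libraries, 2 of CVS and 2 of CS, each made from the pooled RNA of several animals, so that the spread between libraries is one between pools. Each level below is thus an average over animals killed within those few hours, from which neither the phase nor the amplitude of a rhythm can be read. The time at which each group or pool was taken within them is not given in the sources used here. A difference in that time cannot be told apart from one between groups.

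The mammalian clock is a feedback loop of transcription. CLOCK, or its relative NPAS2, pairs with BMAL1 and switches on genes through E-box sequences, among them the *Per* and *Cry* genes, whose proteins return to the nucleus and repress that activity. A second loop runs through NR1D1 (REV-ERB alpha), a nuclear receptor that represses *Bmal1* and *Npas2* through ROR elements, and DBP carries the rhythm to output genes through D-boxes. The adrenal gland has a clock of its own, which sets how strongly the cortex responds to ACTH across the day and so helps to shape the daily rhythm of glucocorticoid.

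RefSeq start-site windows were matched by symbol for 4 of the 5 genes, *Per2*, *Npas2*, *Dbp* and *Nr1d1*, the last with 2 annotated starts. *Cry1* was not matched. Windows ran from 250 bases before to 50 bases after the start in the GRCr8 build, which differs from the Rnor_6.0 build of the counts. Both strands were searched for the E-box CACGTG, the E-prime-box CACGTT, the D-box TTATGTAA, the ROR element half-site AGGTCA and the glucocorticoid receptor half-site AGAACA. No match overlapped another. The 250 bases before the start are shown for *Per2* and *Nr1d1*, the genes with a match, in the direction of transcription with the matches in capitals.
Per2, chr9:99496994-99497243, minus strand: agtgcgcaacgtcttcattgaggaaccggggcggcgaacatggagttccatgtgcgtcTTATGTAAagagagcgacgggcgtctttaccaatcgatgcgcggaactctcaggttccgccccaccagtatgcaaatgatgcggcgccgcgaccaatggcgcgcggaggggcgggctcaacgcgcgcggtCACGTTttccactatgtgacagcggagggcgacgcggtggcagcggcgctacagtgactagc
Nr1d1 first start, chr10:84231813-84232062, minus strand: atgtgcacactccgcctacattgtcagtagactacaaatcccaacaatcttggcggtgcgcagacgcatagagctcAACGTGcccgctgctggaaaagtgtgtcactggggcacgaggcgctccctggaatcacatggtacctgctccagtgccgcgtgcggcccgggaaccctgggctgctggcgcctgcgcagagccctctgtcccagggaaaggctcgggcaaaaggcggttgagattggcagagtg
Nr1d1 second start, chr10:84229455-84229704, minus strand: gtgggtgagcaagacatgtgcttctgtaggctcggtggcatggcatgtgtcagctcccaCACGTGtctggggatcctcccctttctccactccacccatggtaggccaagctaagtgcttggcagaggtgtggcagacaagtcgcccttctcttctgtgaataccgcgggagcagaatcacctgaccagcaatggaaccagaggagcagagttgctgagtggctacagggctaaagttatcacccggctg

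The *Per2* window held a D-box at positions -192 to -185 and an E-prime-box at -62 to -57, counted from the start. The first *Nr1d1* window held an E-prime-box on the opposite strand at -174 to -169 and the second an E-box at -191 to -186. Among all 33469 windows of the same length, 6.42% held the E-box, 4.83% the E-prime-box and 0.893% the D-box. The half-sites AGGTCA and AGAACA were present in 16.2% and 20.7% of windows and in none of these 5. The *Npas2* and *Dbp* windows held none of the 5 letter strings, which says only that they are not in these 300 bases.

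Depth and tissue were checked first. Totals ranged from 20095746 to 32242123 counts per library. All 5 genes had at least 10 counts in all 7 libraries, as did 13892 genes in all. The smallest count was 142, for *Npas2* in CVS 2, which gives a counting error of 8.39%, and the largest 15806, for *Dbp* in Control 1, with a counting error of 0.795%. Levels are normalized CPM, the counts scaled by edgeR's TMM factors to the same library total. They compare a gene between libraries and not 1 gene with another, since gene lengths were not used. Transcripts of the adrenal cortex and medulla were abundant in every library, with *Cyp11b2*, aldosterone synthase, at 1679 to 2594 and *Chgb*, a protein of chromaffin granules, at 1049 to 1566 normalized CPM. *Cyp11b2*, listed for CVS, was at 1679 to 2096 in Control and 2401 to 2594 in the stressed libraries. *Chgb*, listed for CS, was at 1093 to 1233 in Control, 1500 and 1566 in CS, and 1049 and 1194 in CVS. These genes show which tissue was present, not that its make-up was even between groups. In these bulk pools, fewer cells of a kind and less RNA per cell cannot be told apart.

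*Cry1* (ENSRNOG00000006622), which encodes the repressor cryptochrome 1, was higher in both stress groups than in Control and highest in CVS. Its normalized CPM were 16.2, 18.8 and 17.7 in Control libraries 1 to 3, 22.4 and 29.7 in CS 1 and CS 2, and 39.9 and 31.2 in CVS 1 and CVS 2. The 3 groups did not overlap at any point of that order. The mean was 17.6 ± 1.32 in Control (SD, n = 3), 26.0 ± 5.15 in CS (SD, n = 2) and 35.6 ± 6.17 in CVS (SD, n = 2). Against Control the log2 fold change was 1.02 ± 0.13 (standard error) in CVS and 0.57 ± 0.14 in CS. The latter depended on the CS library used, at 0.76 when replicate 1 was left out and 0.35 when replicate 2 was.

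*Per2* (ENSRNOG00000020254), the period repressor that binds cryptochromes, was higher in CVS and at the Control level in CS. Control libraries held 81.0, 84.8 and 74.2 normalized CPM, CS libraries 81.9 and 82.1, and CVS libraries 135 and 121. Both CS libraries lay inside the Control range and both CVS libraries above it. Mean levels were 80.0 ± 5.39 in Control (SD, n = 3), 82.0 ± 0.117 in CS (SD, n = 2) and 128 ± 9.94 in CVS (SD, n = 2). Its log2 fold change was 0.67 ± 0.0925 (standard error) in CVS and 0.036 ± 0.088 in CS, with a 95% interval in CS from -0.17 to 0.24. Whichever library was left out, the CS value stayed between -0.017 and 0.076.

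*Npas2* (ENSRNOG00000013408), the partner of BMAL1 that can take the place of CLOCK, was lower in both stress groups and lowest in CVS. It had 14.0, 14.8 and 13.4 normalized CPM in Control, 7.81 and 10.2 in CS, and 4.94 and 7.16 in CVS. Every CS library was below every Control library, and every CVS library below every CS library. Relative to the Control mean of 14.05 ± 0.714 (SD, n = 3), the CS mean was 64.1% and the CVS mean 43.1%. As log2 fold changes these were -1.23 ± 0.18 (standard error) in CVS and -0.64 ± 0.15 in CS. The CS value ran from -0.85 to -0.46 and the CVS value from -1.51 to -0.97 with 1 library left out. As a paralog of *Clock*, *Npas2* could share some short reads with it if the counting did not keep them apart.

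*Nr1d1* (ENSRNOG00000009329), the repressor of the second loop, had the same order as *Npas2*. Its normalized CPM were 161, 167 and 169 in Control, 129 and 127 in CS, and 67.6 and 117 in CVS. The highest library exceeded the lowest by a factor of 1.05 in Control and 1.01 in CS, whereas the CVS libraries differed by a factor of 1.73. Means were 166 ± 4.39 in Control (SD, n = 3), 128 ± 1.33 in CS (SD, n = 2) and 92.3 ± 34.9 in CVS (SD, n = 2), so that CS stood at 77.1% of the Control mean and CVS at 55.7%. The log2 fold changes were -0.38 ± 0.079 (standard error) in CS and -0.85 ± 0.20 in CVS. Leaving out replicate 1 of CVS gave -0.50, and leaving out replicate 2 gave -1.30. *Nr1d1* overlaps the thyroid hormone receptor gene *Thra* on the opposite strand. The libraries were strand-specific, but the strand setting of the counting is not given in the sources used here, so that reads of the overlap could be misplaced.

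*Dbp* (ENSRNOG00000021027), the output factor, was lower in both CS libraries and in 1 of the 2 CVS libraries. It had 469, 510 and 426 normalized CPM in Control, 343 and 332 in CS, and 256 and 469 in CVS. The CS libraries were both below the Control range, CVS 1 was below every other library, and CVS 2 fell within the Control range. Mean levels were 468 ± 42.1 in Control (SD, n = 3), 337 ± 7.67 in CS (SD, n = 2) and 363 ± 150 in CVS (SD, n = 2). The fitted log2 fold change was -0.47 ± 0.098 (standard error) in CS and -0.37 ± 0.22 in CVS, with a 95% interval in CVS from -0.87 to 0.13. The CVS value rested on 1 library, since it was -0.87 when replicate 2 was left out and 0.0025 when replicate 1 was.

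**Figure D1:**
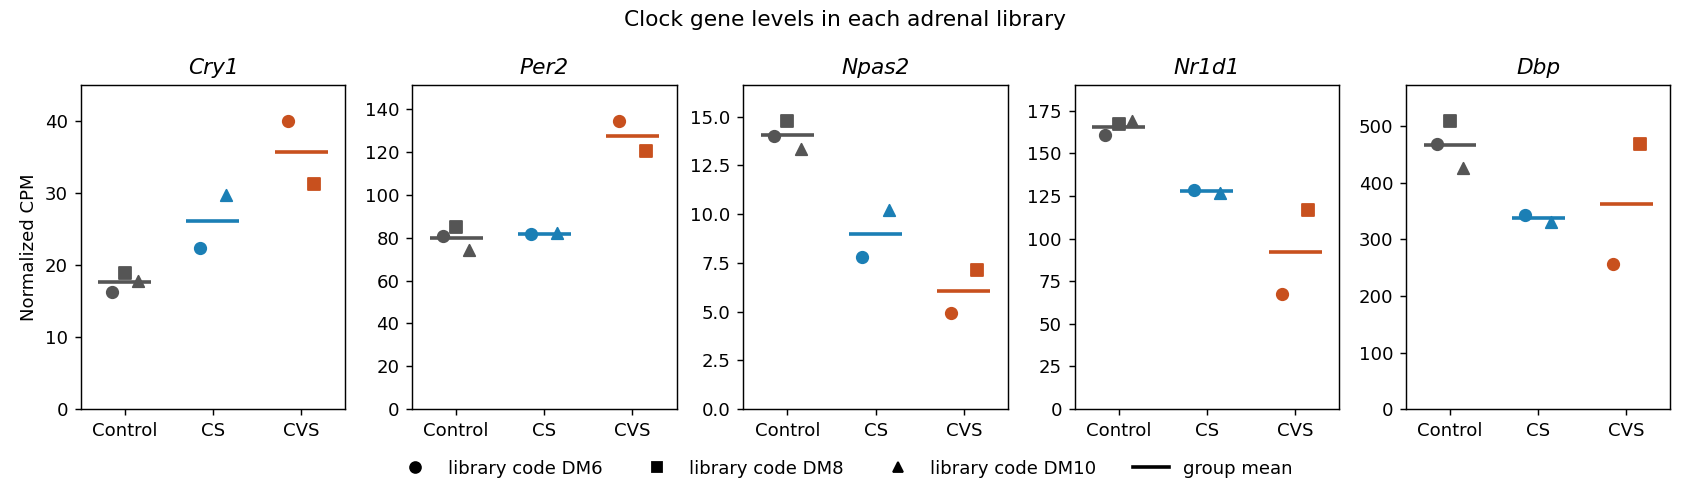
Normalized CPM of the 5 clock genes (vertical axes, from 0, 1 scale per gene) in the 3 Control, 2 CS and 2 CVS libraries. Points are libraries, their shape the prefix of the library code, and lines are group means. *Cry1* runs from 16.2 to 39.9 and *Npas2* from 14.8 down to 4.94 over the groups, *Per2* stands out in CVS only, and the CVS libraries of *Dbp* lie apart at 256 and 469.

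Of the 10 pairs of a gene and a protocol, 7 were listed and 3 were not, *Cry1* and *Per2* in CS and *Dbp* in CVS. The unlisted log2 fold change of *Cry1* in CS (0.57) was larger in size than the listed -0.38 of *Nr1d1*, which had the smaller standard error. The study listed genes with DESeq2. In CS, 0 of the 5 genes were called by edgeR's quasi-likelihood test (adjusted p under 0.05), where 0.209% of all genes were called, and DESeq2 called 3, against 1.37% of all genes. At an unadjusted p under 0.05 in CS it was 4 of 5, against 8.44% of all genes. In CVS edgeR called 1 of the 5, *Cry1*, against 0.0936% of all genes, and DESeq2 called 4, against 0.893%. The edgeR call of *Cry1* was lost with DESeq2 size factors, in a fit of all 7 libraries, where *Per2* was called instead, and without Control 1, 2 or 3 or CVS 1. With the replicate number as a block edgeR called 4 of the 5 in CS (3.01% of all genes) and all 5 in CVS (5.88%). When that block was fitted on all 7 libraries, it called 1 of the 5 in CS, *Npas2* (2.60% of all genes), and 4 in CVS, all but *Dbp* (0.878%).

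In CS, levels did not overlap Control for 4 of the 5 genes, against 24.9% of all genes tested. *Cry1* was above Control there, as were 12.9% of genes, and *Npas2*, *Nr1d1* and *Dbp* were below it, as were 11.9%. In CVS it was likewise 4 of 5, against 22.3%, with *Cry1* and *Per2* above (11.3% of genes) and *Npas2* and *Nr1d1* below (10.9%). All 4 stressed libraries lay above all 3 Control libraries for *Cry1*, as for 3.75% of genes, and below them for *Npas2* and *Nr1d1*, as for 3.62%. The full order of CVS over CS over Control, shown by *Cry1*, was found in 0.619% of genes, and the reverse order of *Npas2* and *Nr1d1* in 0.684%. The rule that chose the genes used these contrasts, and nothing is read from the counts. CS and CVS were compared with the same 3 Control libraries.

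The 2 protocols were then compared directly. *Per2* and *Cry1* were lower in CS than in CVS, *Npas2* and *Nr1d1* were higher, and *Dbp* differed least, so that 4 of the 5 genes had levels that did not overlap between the groups. In this comparison of 2 libraries with 2, levels did not overlap for 40.1% of all genes, with 20.5% higher and 19.6% lower in CS. The same CS and CVS libraries had entered the contrasts that chose the genes, so that the p-values below are not free of that choice. *Per2* had a log2 fold change of CS over CVS of -0.64 (standard error 0.099, 95% interval -0.88 to -0.40), with an unadjusted p of 0.000472 in edgeR and an adjusted p of 0.546 (Benjamini-Hochberg, over 13892 genes). The log2 fold change was -0.46 for *Cry1* (95% interval -0.89 to -0.026) and 0.58 for *Npas2* (0.0038 to 1.16). It was 0.47 for *Nr1d1* (95% interval -0.095 to 1.03) and -0.11 for *Dbp* (-0.72 to 0.51). The intervals of *Npas2*, *Nr1d1* and *Dbp* each spanned more than 1 log2 unit.

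None of the 5 genes, as 0 of all genes, passed an adjusted p of 0.1 in edgeR, the threshold the study used for this comparison. At an unadjusted p under 0.05 there were 3, *Per2*, *Cry1* and *Npas2*, where 7.34% of all genes were under 0.05. The adjusted p was 0.658 for *Cry1*, 0.676 for *Npas2*, 0.689 for *Nr1d1* and 0.925 for *Dbp* in the same edgeR fit. DESeq2's Wald test called *Per2* alone among the 5, with an adjusted p of 0.00156, and 0.324% of all genes. With the replicate number as a block, edgeR's adjusted p was 0.000581 for *Per2*, 0.0563 for *Nr1d1* and 0.0804 for *Npas2*, past that threshold, and 0.104 for *Cry1*, where 6.07% of all genes were called. With that block in a fit of all 7 libraries, which called 3.74% of all genes, *Per2* passed alone (adjusted p 0.00791), and edgeR's adjusted p was 0.138 for *Nr1d1* and 0.103 for *Npas2*. The difference in *Nr1d1* shrank to 0.13 when replicate 1 of CVS was left out and grew to 0.91 when replicate 2 was. That of *Dbp* changed sign, from -0.48 in the first case to 0.39 in the second. The difference in *Per2* was between -0.72 and -0.56 whichever library was left out. That of *Cry1* ran more widely, from -0.68 to -0.27, as did that of *Npas2*, from 0.33 to 0.86.

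**Figure D2:**
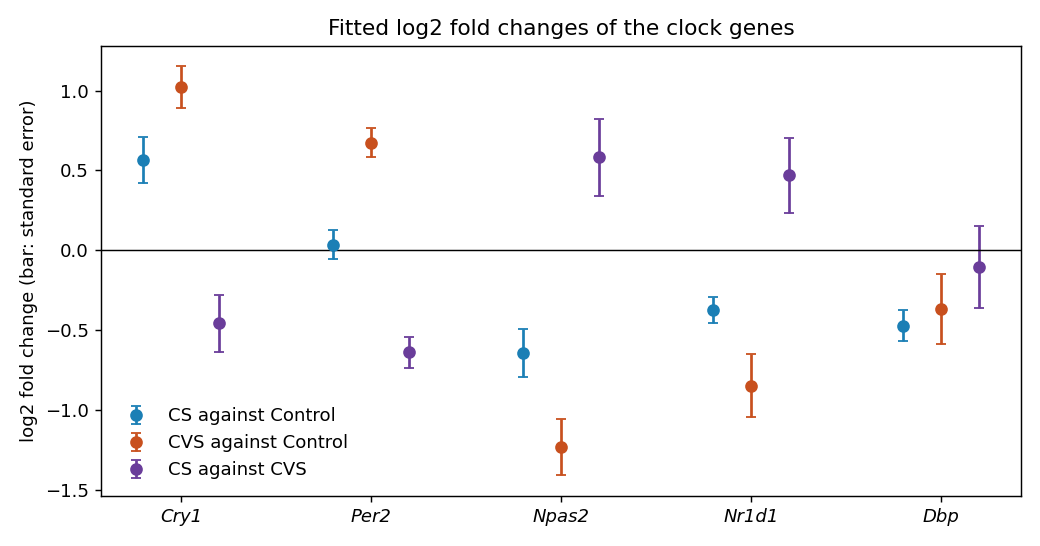
Fitted log2 fold changes (vertical axis) of the 5 genes in CS against Control, CVS against Control and CS against CVS, with bars for the standard error of edgeR's fit. *Per2* is near 0 in CS against Control (0.036) and at 0.67 in CVS, while *Npas2* and *Nr1d1* are below 0 in both protocols and further below in CVS.

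The library codes in the labels fall under 3 prefixes, DM6 for Control 1, CS 1 and CVS 1, DM8 for Control 2 and CVS 2, and DM10 for Control 3 and CS 2. What a prefix marks is not given in the sources used here. Each stressed library could be set against the 1 Control library of its own prefix, with no test. *Cry1* was higher by 1.30 in CVS 1 and 0.73 in CVS 2 on the log2 scale, and by 0.47 in CS 1 and 0.74 in CS 2. *Npas2* was below its Control library in all 4, with log2 differences of -1.50 and -1.04 in CVS and -0.84 and -0.39 in CS. For *Nr1d1* they were -1.25 and -0.52 in CVS and -0.32 and -0.42 in CS. For *Per2* they were 0.73 and 0.51 in CVS but 0.017 and 0.15 in CS. For *Dbp* they were -0.87 and -0.12 in CVS and -0.45 and -0.36 in CS. The *Dbp* difference of CVS 2 was of ordinary size, as 50.8% of all genes differed more in that pair. CS 1 and CVS 1 were both set against Control 1, so that the 4 pairs are not separate. The median size of such a difference over all genes was between 0.12 and 0.17.

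**Figure D3:**
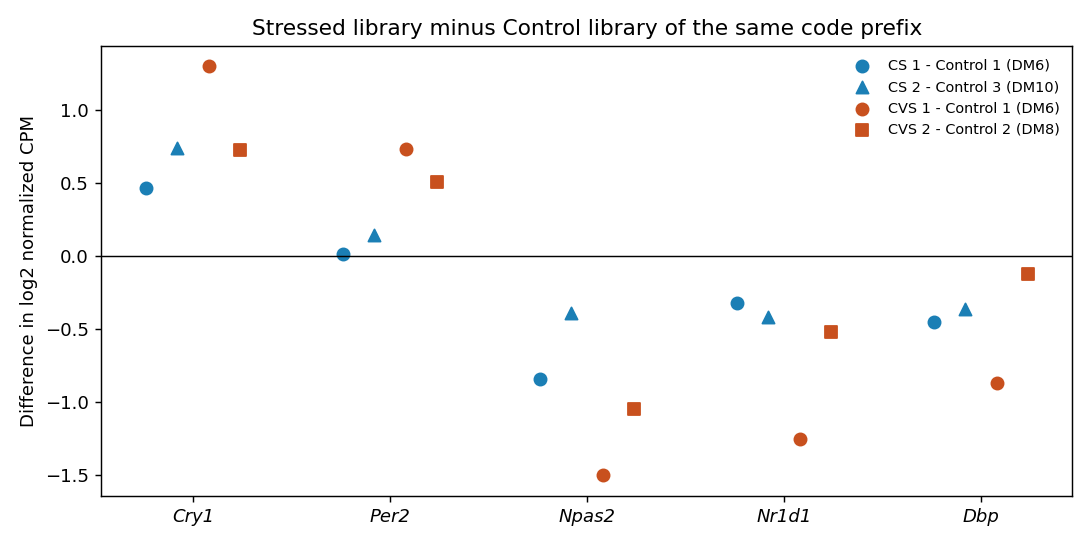
Difference in log2 normalized CPM (vertical axis) between each stressed library and the Control library of the same code prefix, for the 5 genes, where each point is 1 pair of libraries. *Cry1* is above 0 and *Npas2* and *Nr1d1* are below 0 in all 4 pairs, as is *Dbp*, which is only at -0.12 in CVS 2. CVS 1 is the farthest from 0 for all 5 genes.

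In each of the 5 genes CVS 1 was farther from its Control library than CVS 2 was. Between the CVS libraries themselves, CVS 1 had 0.547 times the *Dbp*, 0.578 times the *Nr1d1* and 0.690 times the *Npas2* of CVS 2, and 1.28 times the *Cry1* and 1.12 times the *Per2*. A larger difference between these libraries was found for 3.15% of all genes in the case of *Dbp* and 3.95% for *Nr1d1*, but for 49.6% for *Per2*. The CS libraries differed little in *Per2*, *Nr1d1* and *Dbp*, with CS 1 at 0.998, 1.01 and 1.03 times the level of CS 2. In *Cry1* and *Npas2* CS 1 had 0.755 and 0.766 times the level of CS 2, both lower in the same library although the genes differed from Control in opposite directions.

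The ratio of 2 genes within a library does not depend on the scaling between libraries. Relative to its Control mean, the log2 ratio of *Cry1* to *Npas2* was -0.11 to 0.086 in Control, 1.20 and 1.22 in CS, and 2.69 and 1.80 in CVS. That is a ratio of repressor to activator transcript 2.31 times the Control mean in CS and 4.75 times in CVS. The log2 ratio of *Per2* to *Nr1d1* was between -0.14 and 0.073 in Control, 0.40 and 0.43 in CS, and 2.05 and 1.10 in CVS. For *Per2* to *Dbp* it was 0.48 and 0.53 in CS and 1.62 and 0.59 in CVS, so that CVS 2 was close to the CS libraries. The ratio of *Cry1* to *Per2*, both repressors of the main loop, had log2 values of 0.31 and 0.72 in CS and 0.43 and 0.24 in CVS. In CVS it was the closest to Control of these 4 ratios.

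**Figure D4:**
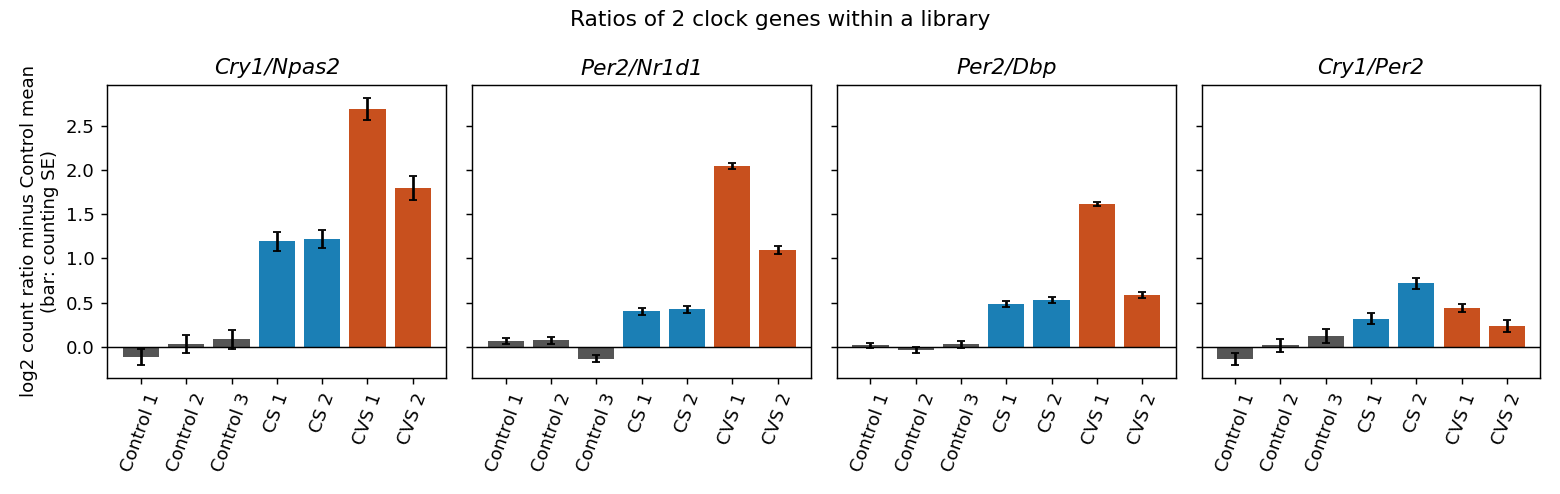
Log2 ratio of the counts of 2 clock genes within each library, minus the mean of the Control libraries (vertical axis, shared), with bars for the counting error. The ratio of *Cry1* to *Npas2* is at about 1.20 in both CS libraries and at 2.69 and 1.80 in CVS, while that of *Cry1* to *Per2* stays under 0.72 throughout.

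Over the 7 libraries *Cry1* and *Per2* ran opposite to *Npas2* and *Nr1d1*, and *Dbp* was tied less closely to the latter. The log2 levels of *Npas2* and *Nr1d1* had a Pearson r of 0.940, those of *Nr1d1* and *Dbp* 0.821, and those of *Cry1* and *Per2* 0.829. *Cry1* and *Nr1d1* had an r of -0.909 and *Cry1* and *Npas2* one of -0.892. *Per2* and *Dbp* were the least related, with an r of -0.415. By rank the ties of *Dbp* were weaker, with a Spearman rho of 0.5 with *Nr1d1*, 0.607 with *Npas2* and -0.107 with *Per2*. The tie of *Per2* and *Npas2* was weaker by rank as well, with an r of -0.834 and a rho of -0.571. The rho of *Npas2* and *Nr1d1* was 0.857. These values describe 7 libraries that share groups and code prefixes, and genes that were chosen for differing between the groups.

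The genes most like each member were sought among 259 genes with a full symbol in the same lists, the other clock genes included, by Pearson r of log2 levels over the 7 libraries. For *Cry1* they were *Kcnt1*, a sodium-activated potassium channel (r = 0.970), *Hebp1*, a heme-binding protein (0.956), and *Mrc1*, the macrophage mannose receptor (0.946). For *Per2* they were the cation channel gene *Trpm4* (r = 0.973), *Cys1* (0.967) and the epoxide hydrolase gene *Ephx1* (0.960). By rank they were less close to *Per2*, with a Spearman rho of 0.679, 0.571 and 0.786 in that order. *Npas2* was closest to *Laptm4b* (r = 0.966), *Il23r* (0.964) and *Apoc4* (0.958). *Nr1d1* was closest to *Cpt1b*, which encodes a mitochondrial carnitine palmitoyltransferase (r = 0.971), *Laptm4b* (0.961) and *Fgf7* (0.947). *Dbp* was closest to *Pdlim2* (r = 0.950), the lipid droplet gene *Plin5* (0.906) and *C1qtnf1* (0.906). All of these genes were, like the clock genes, listed because they differed from Control. *Wee1* and *Klf15*, known in other tissues as genes under clock control, were looked up after the lists had been seen. *Wee1* was listed for CVS alone and *Klf15* for CS alone, so that each differed from Control in that protocol by its choice. *Wee1* had 32.8 to 35.0 normalized CPM in Control, 32.3 and 35.1 in CS, and 45.8 and 48.0 in CVS. The CS libraries lay just above and just below the Control range, and both CVS libraries were above it. *Klf15* had 24.6 to 28.3 in Control, 21.8 and 25.3 in CVS, and 17.5 and 17.9 in CS, below Control in both CS libraries.

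Of 28 genes on 4 lists of clock factors and of enzymes that act on clock proteins, the 5 described here were the ones with a symbol that could be matched, so that *Clock*, *Bmal1*, *Per1* and the others were not analysed here. Symbols came only from the study's lists of genes that differed from Control, so that a gene absent from those had none here. The lists of steroid synthesis, immediate early and cell type genes were matched in part only. *Egr1*, an immediate early gene, had 8.71 to 11.2 normalized CPM in Control, 9.38 and 10.3 in CVS, and 13.6 and 21.3 in CS. It was listed for CS alone, so that its difference from Control in CS follows from how it was matched. Of 5 white adipocyte markers 4 were matched, *Adipoq*, *Plin1*, *Cidec* and *Retn*, and none of the 4 was at 0. Their summed level was 17.4 to 26.1 normalized CPM in Control, 31.0 and 34.8 in CVS, and 47.9 and 52.6 in CS. All 4 had their symbols from the list for CS against Control, so that their difference from Control in CS follows from how they were matched. The order of the groups in this sum is therefore not compared with that of the clock genes. The part of adipocyte RNA in the clock gene levels was not tested.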

How the data were processed

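RNA sequencing of 7 adrenal libraries was analysed. The authors enriched poly(A) RNA from pools of animals, made directional libraries, mapped single reads to Rnor_6.0 with Rsubread and deposited unnormalized counts per Ensembl gene from featureCounts. Versions, strand setting and annotation release are not given in the sources used here. Symbols came from the study's supplementary lists, which named 276 genes in the table.

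A gene was tested if every one of the 7 libraries had at least 10 counts. Each comparison used its own libraries only, in edgeR 4.0.16 (R 4.3.3, TMM scaling, quasi-likelihood test at default settings), with Benjamini-Hochberg adjustment. DESeq2 1.42.0, other scaling, no filter, blocks, fits of all 7 libraries and leaving out each library were the alternatives. Fits were tested on simulated data. Log2 CPM used a prior count of 0.5. Figures were drawn with matplotlib 3.10.9.

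Replicate numbers in the titles were taken to pair libraries, because in all 6 same-numbered pairs the deviations from the group means were correlated over genes (0.212 to 0.465). Those of libraries with the same code prefix did so at 0.195 to 0.465 in 5 pairs. With 2 libraries in a group the deviations mirror each other, so these pairs are not independent. Number and prefix disagree for CS 2, which has the number of Control 2 and the prefix of Control 3. Its deviations correlated at 0.212 with those of Control 2 and at 0.195 with those of Control 3. The correlations thus do not favour the number over the prefix. Calls with the replicate block rest on this pairing, which was taken from the same data.

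The genes and lists were chosen with earlier results of these data known. The genes named are the 5 members, the listed genes that could be matched, up to 3 per list by mean count, and the 3 most like each member. Counting errors cover the sampling of reads only. One gene of the lists was left out of these and is not reported here.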

Additional observations from a re-analysis of the deposited data

How the results depend on the processing

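The log2 fold changes of the 5 genes kept their sign against Control under every alternative, except *Per2* in CS, which lay near 0, and *Dbp* in CVS without CVS replicate 1. In CS against CVS all but *Dbp* kept theirs. Against Control, 2 values moved by more than the spread between libraries in a fit of all 7 libraries with the code prefix as a block, chosen after seeing the data, to -0.27 for *Nr1d1* and -0.31 for *Dbp* in CS.

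In CS against CVS, *Per2* was past the adjusted p threshold of 0.1 by the DESeq2 fit (log2 fold change -0.64), with no filter (-0.64), with the replicate block (-0.64), with that block in a fit of all 7 libraries, also chosen after seeing the data (-0.64), and with the code prefix as a block in such a fit (-0.60). *Nr1d1* passed with no filter (0.47), with the replicate block (0.52) and with the code prefix (0.64), *Npas2* with the replicate block (0.58), and *Cry1* with no filter (-0.45). The cause was not tested. The paired fits limited to the libraries compared had 1 residual degree of freedom, and those of all 7 libraries had more.

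With 1 library left out at a time, the log2 fold change in CVS against Control was 0.83 to 1.18 for *Cry1*, 0.59 to 0.75 for *Per2*, -1.51 to -0.97 for *Npas2*, -1.30 to -0.50 for *Nr1d1* and -0.87 to 0.0025 for *Dbp*. In CS against Control it was 0.35 to 0.76 for *Cry1*, -0.85 to -0.46 for *Npas2*, -0.40 to -0.36 for *Nr1d1* and -0.54 to -0.41 for *Dbp*. A lone library was assumed to vary like the other group. Over all genes, the calls in CS against Control were 29, against 191 with DESeq2 and 418 with the replicate block, in CVS 13, 124 and 817, and in CS against CVS 0, 45 and 843. The planned count of other clock genes could not be made, because none was matched to a symbol.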
